A study of Saccharomyces cerevisiae with 8 samples.

Results

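Polyadenylated RNA from budding yeast cells that lack both AIR2 and RRP6 (air2 rrp6) was compared with that from cells that lack RRP6 alone (rrp6), so that the comparison shows what differs with the loss of AIR2 when RRP6 is already absent. The comparison rests on 4 of the 8 libraries of the series, 2 per strain, and covers all 9014 features of the count table. Both strains carry rrp6::LEU2 in the MATα background BY4742 (his3Δ1 leu2Δ0 lys2Δ0 ura3Δ0), and air2 rrp6 also carries air2::bleR, so neither strain has a functional RRP6 and both express the LEU2 marker. The other 4 libraries, from air1 rrp6 and from the wild type (WT), entered the model fit, and air1 rrp6 served as a second comparison. Cells from single colonies grew at 30 °C in YPD, a rich medium, until their optical density reached about 2.5. Tailed RNA was captured on poly(U) sepharose and sequenced on the SOLiD platform. No label says whether the 2 libraries of a strain stem from different cultures, and a p-value here reflects only how the libraries vary, which may be technical.

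Air2 and its paralog Air1 are zinc knuckle proteins of the TRAMP complex. TRAMP pairs one of them with a poly(A) polymerase, Trf4 or Trf5, and with the helicase Mtr4, and it adds short oligo(A) tails to nuclear RNAs. The tailed RNAs are then trimmed or degraded by the nuclear exosome, of which Rrp6 is the exonuclease found only in the nucleus. Small nucleolar RNAs (snoRNAs), spliceosomal RNAs, ribosomal RNA precursors, faulty tRNAs and cryptic unstable transcripts (CUTs) are all known substrates, and in cells without Rrp6 some of them persist with a poly(A) tail. RNA was captured by its tail, yet ribosomal DNA features took 55.1 to 68.9% of the counts in these 4 libraries. They took 66.9 and 82.3% in WT. How much untailed RNA came through the capture was not tested. Fewer molecules of an RNA, fewer tailed copies of it and less carry-over without a tail therefore cannot be told apart here, for any feature below.

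The comparison gave a single call and shifts of several classes of RNAs. The call was AIR2 itself, at a threshold of an adjusted p under 0.05 in edgeR's quasi-likelihood test over 7543 tested features. It was the only one of them lower (0.0133%), and 0 were higher (0%). The largest shift by class median was that of snoRNAs, which lay lower in air2 rrp6 than in rrp6. Their median log2 fold change was -1.02 over 68 snoRNAs against 0.02 over all tested features, although no single snoRNA passed that threshold. Spliceosomal RNAs (-0.91, 6 tested), tRNA genes (-0.65, 81 tested) and ribosomal DNA features (-0.52, 25 tested) also had medians below 0. Ty elements had a median of 0.31 (49 tested). Unadjusted p-values under 0.05 were found for 75 higher features (0.994%) and 126 lower ones (1.67%). DESeq2 called 1 feature higher and 20 lower, and edgeR's exact test on the 4 libraries alone called 4 higher and 26 lower.

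The snoRNAs that carry this result are small. The box C/D type guides methylation of ribosomal RNA, and the box H/ACA type guides the conversion of uridine to pseudouridine. Shown are 4 of the C/D snoRNAs with the lowest values in air2 rrp6 relative to rrp6, and the 2 H/ACA snoRNAs that the naming rule picked. The sequences are from the RefSeq R64 genome, read 5′ to 3′ on the strand of the snoRNA at the place where RefSeq puts the gene of that name. The build behind the deposited counts is not given in the sources used here. Capitals mark the first TGATGA (box C) and the last CTGA (box D) in a C/D snoRNA, and the last ACA in an H/ACA snoRNA.
snR62: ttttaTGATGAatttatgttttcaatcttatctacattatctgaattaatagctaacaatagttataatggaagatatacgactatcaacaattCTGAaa
snR53: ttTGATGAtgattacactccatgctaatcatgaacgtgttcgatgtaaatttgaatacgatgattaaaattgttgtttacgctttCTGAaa
snR55: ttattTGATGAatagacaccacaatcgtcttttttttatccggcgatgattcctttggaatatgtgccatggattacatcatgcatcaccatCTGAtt
snR58: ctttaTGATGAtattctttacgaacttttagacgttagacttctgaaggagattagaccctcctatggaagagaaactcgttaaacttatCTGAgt
snR49: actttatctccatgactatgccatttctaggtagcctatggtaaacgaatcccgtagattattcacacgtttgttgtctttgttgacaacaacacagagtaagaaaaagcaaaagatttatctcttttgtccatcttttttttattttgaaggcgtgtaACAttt
snR9: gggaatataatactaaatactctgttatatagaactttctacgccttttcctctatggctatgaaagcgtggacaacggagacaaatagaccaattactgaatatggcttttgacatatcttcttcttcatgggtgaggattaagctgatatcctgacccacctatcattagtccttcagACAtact

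These genes lie on chromosome XV (snR62, chrXV:409765-409864, minus strand; snR58, chrXV:136088-136183, minus strand; snR9, chrXV:407948-408134, minus strand), chromosome V (snR53, chrV:61699-61789, plus strand), chromosome XII (snR55, chrXII:794697-794794, minus strand) and chromosome XIV (snR49, chrXIV:716120-716284, plus strand). On the strand of the RNA, TGATGA occurs in 38 of 45 C/D snoRNAs and in 3 of 29 H/ACA snoRNAs. CTGA lies within the last 10 bases of 37 C/D snoRNAs and of 1 H/ACA snoRNA. ACA lies within the last 10 bases of 18 H/ACA snoRNAs and of 5 C/D snoRNAs. The printed C/D snoRNAs therefore show the ends typical of their type, with 2 bases after box D in all 4.

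The deleted genes were examined before any other feature. In air2 rrp6 the AIR2 count was 34 and 21, against 549 and 273 in rrp6. Scaled to CPM (counts relative to library size, per the usual fixed total) after TMM normalization, AIR2 fell to 0.873 ± 0.035 CPM in air2 rrp6, against 13.7 ± 3 CPM in rrp6 (SD, n = 2 each), which is 0.0637 of the rrp6 level. Its log2 fold change was -3.97 (SE 0.28, adjusted p = 0.00082, edgeR quasi-likelihood test). The call ended without either air2 rrp6 library, at an adjusted p of 0.056 and 0.053 with little change in the fold. RRP6 had 51 and 38 counts in air2 rrp6 and 25 and 39 in rrp6, which overlap. LEU2 had 559 and 266 counts in air2 rrp6 and 378 and 260 in rrp6, and LYS2 and URA3, deleted in the background, had 0 in every library. HIS3 had 306 and 220 counts in air2 rrp6 and 171 and 236 in rrp6. The his3Δ1 allele removes only part of that gene, so its counts check nothing. The α-cell genes MF(ALPHA)1 and STE3 were abundant in all 4 libraries (12378, 7577, 18855 and 7434 counts for MF(ALPHA)1, and 2407 to 5215 for STE3), and the a-cell pheromone gene MFA1 had 7 and 2 counts in air2 rrp6 and 1 and 5 in rrp6, as the mating type on the label requires.

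The gene next to AIR2 also stood out. DLD1, which encodes mitochondrial D-lactate dehydrogenase, lies 307 bases from AIR2 on the same strand of chromosome IV, upstream of it (AIR2 chrIV:144484-145518, DLD1 chrIV:145826-147589, both minus strand, RefSeq R64). DLD1 had 5.47 and 5.65 CPM in air2 rrp6, against 10.8 and 14.3 CPM in rrp6. The libraries do not overlap, and the log2 fold change was -1.18 (SE 0.25, adjusted p = 1 in the quasi-likelihood test, 0.035 in DESeq2 and 0.045 in the edgeR exact test). The same gene had 15.8 and 16.6 CPM in air1 rrp6, where AIR2 is intact. GID12, on the other side of AIR2 and 260 bases from it, had 4.99 and 5.98 CPM in air2 rrp6 and 6.9 and 5.51 CPM in rrp6, which overlap. Whether the marker at the AIR2 locus has a part in the DLD1 value was not tested.

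The 4 libraries held 29750702 and 18742328 counts for air2 rrp6, against 28895762 and 25803409 for rrp6. Ribosomal DNA features took 57.1 and 55.1% of the air2 rrp6 libraries and 57 and 68.9% of the rrp6 libraries, which leaves 12763854 and 8420157 counts outside them in air2 rrp6, against 12437479 and 8029375 in rrp6. The second rrp6 library therefore holds the largest ribosomal share and the fewest other counts. With counts scaled by library totals instead of TMM, the median of all features moves to 0.32, so fold changes under that scaling are read against 0.32.

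The snoRNA class took a smaller share of the air2 rrp6 libraries. Of the counts outside ribosomal DNA and mitochondrial features, snoRNAs held 1.7 and 1.96% in air2 rrp6, against 3.22 and 3.36% in rrp6, a ratio of 0.557 of the strain means (1.83% ± 0.18 and 3.29% ± 0.1, SD, n = 2 each). The 2 strains do not overlap, and with 2 libraries per strain an exact permutation test has 0.33 as its smallest p. With all counts as the denominator the ratio was 0.665. For orientation, the share was 2.83 and 2.2% in air1 rrp6 and 1.22 and 2.77% in WT, so the WT libraries differ from each other by more than the 2 strains compared here.

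Of 76 snoRNAs, 68 passed the filter on low counts. Both air2 rrp6 libraries lay below both rrp6 libraries for 45 snoRNAs (66.2%), where 13.2% of all tested features did so. Both lay above for 1 (1.47%), where 15.7% of all features did. At an unadjusted p under 0.05, 34 snoRNAs were lower and 0 higher, where 1.67% of all features were lower. That count was 17 with library totals, and 21 without air2 rrp6 replicate 1 and also without rrp6 replicate 1. The fitted log2 fold change was below 0 for 66 snoRNAs and ran from -3.04 to 0.41. The 8 snoRNAs that did not pass the filter (snR18, snR24, snR38, snR39, snR44, snR54, snR59 and snR191) are those that RefSeq places inside a coding gene, such as snR24 in ASC1. They had fewer than 5 counts in each of these libraries and are not described further.

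**Figure D1:**
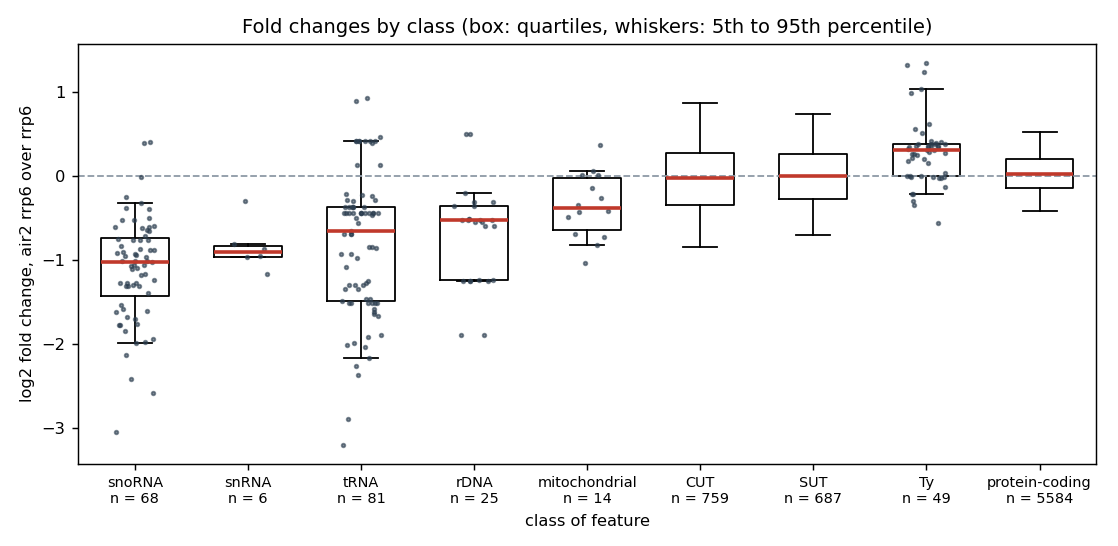
Log2 fold change of air2 rrp6 over rrp6 (y axis) for tested features of 9 classes (x axis, with the number tested); the red line is the median, the box the quartiles and the whiskers the 5th and 95th percentiles, and points are drawn for classes of up to 100 features. The snoRNA box lies below 0, with a median of -1.02, whereas CUTs, SUTs and protein-coding genes centre near 0.

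snR62, a C/D snoRNA, had the lowest log2 fold change of the class. It had 2.8 and 7.92 CPM in air2 rrp6, against 45.7 and 41.4 CPM in rrp6. The air2 rrp6 values lie far below both rrp6 values, at 0.123 of the rrp6 mean, with a log2 fold change of -3.04 (SE 0.68). It was among the 13 snoRNAs called lower by both DESeq2 and the exact test (adjusted p = 1.4e-05 and 3e-07), and it passed the quasi-likelihood test only with library totals. Like snR55, snR73, snR69, snR82 and snR30 below, it lies outside the naming rule and was chosen after its values were seen.

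snR53 had 6.28 and 12.5 CPM in air2 rrp6, against 82.5 and 29.5 CPM in rrp6. The groups do not overlap, but the rrp6 libraries differ from each other by more than the air2 rrp6 ones. Its log2 fold change was -2.58 (SE 0.50, adjusted p = 1 in the quasi-likelihood test). It was -1.66 without rrp6 replicate 1, -3.14 without rrp6 replicate 2 and -3.16 without air2 rrp6 replicate 2. snR55 had 4.81 and 10.9 CPM in air2 rrp6, against 46.3 and 37.2 CPM in rrp6. Both snoRNAs are of the C/D type, and the strains are separated by more than either strain's own spread for snR55.

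snR58, snR52, snR56 and snR71, also C/D snoRNAs, follow the same order of strains. snR58 had 31.4 and 44.3 CPM in air2 rrp6, against 170 and 120 CPM in rrp6. snR52 had 40.9 and 76 CPM in air2 rrp6, against 218 and 179 CPM in rrp6. In both, every air2 rrp6 value is under 50% of the lower rrp6 value. snR56 had 19.2 and 37.2 CPM in air2 rrp6, against 79.9 and 67.5 CPM in rrp6. snR71 had 25.8 and 24.8 CPM in air2 rrp6, against 63.2 and 45.5 CPM in rrp6. Their log2 fold changes were -1.94 (snR58), -1.77 (snR52), -1.39 (snR56) and -1.10 (snR71), with SEs of 0.25 to 0.39. snR190, an abundant C/D RNA, had 278 and 268 CPM in air2 rrp6, against 633 and 514 CPM in rrp6 (log2 fold change -1.07, SE 0.26).

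Among H/ACA snoRNAs, snR49 had 5.73 and 10.9 CPM in air2 rrp6, against 29.1 and 24.4 CPM in rrp6 (log2 fold change -1.70, SE 0.34). snR9 had 20 and 18 CPM in air2 rrp6, against 49.4 and 42.5 CPM in rrp6 (log2 fold change -1.27, SE 0.28). Duplicates agree closely for snR9 and the strains do not overlap. Not every H/ACA RNA follows. snR82 had 155 and 160 CPM in air2 rrp6, against 89.8 and 148 CPM in rrp6, the 1 snoRNA whose libraries lay higher without overlap. snR30, which acts in processing of the small subunit ribosomal RNA instead of guiding pseudouridine, had 692 and 1101 CPM in air2 rrp6 and 351 and 1011 CPM in rrp6, which overlap. The 2 copies of the U3 RNA, which also acts in small subunit processing, had log2 fold changes of -1.31 (snR17a, SE 0.83) and -0.92 (snR17b, SE 0.55). U3 copies are nearly identical, so their separate values are uncertain.

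**Figure D2:**
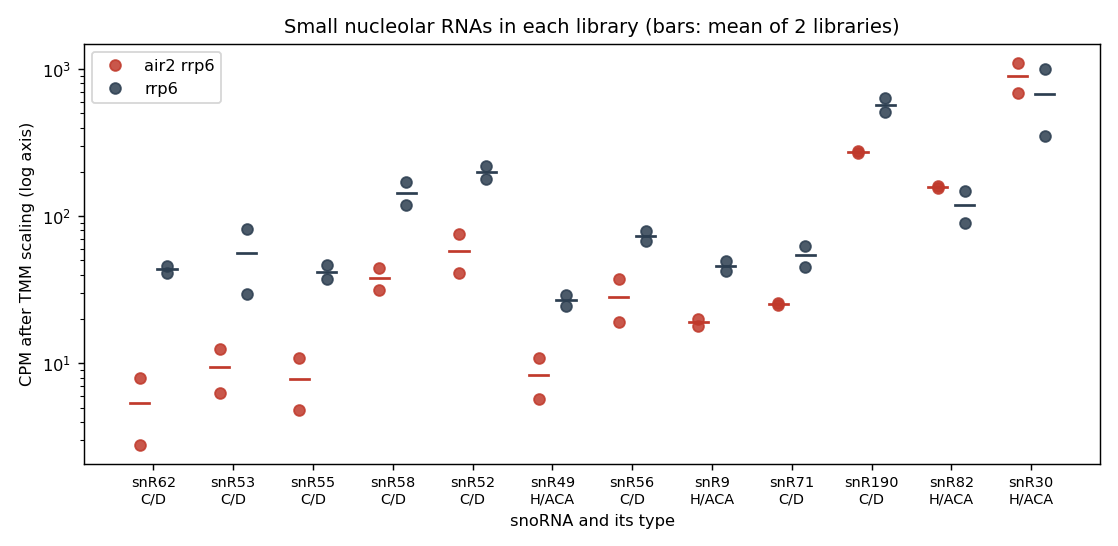
CPM after TMM scaling on a log axis (y axis) in each air2 rrp6 and rrp6 library for 12 snoRNAs (x axis); points are libraries and bars the mean of the 2. The first 10 snoRNAs have both air2 rrp6 libraries below both rrp6 libraries, snR82 has both above, and the snR30 libraries overlap.

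The C/D type and the H/ACA type differed in how many members were lower. All 39 tested C/D snoRNAs had a log2 fold change below 0, with a median of -1.16, and 30 (76.9%) were lower without overlap, against 13.2% of all features. Of 27 tested H/ACA snoRNAs, 25 had a log2 fold change below 0, the median was -0.88, and 14 (51.9%) were lower without overlap. Duplicates were unlike in both strains. The median log2 ratio of library 1 over library 2 was -0.66 in rrp6 and -0.26 in air2 rrp6 for H/ACA snoRNAs. For C/D snoRNAs it was 0.35 in rrp6 and -0.30 in air2 rrp6. The median CPM of H/ACA snoRNAs was 23.6 and 36.6 in air2 rrp6, against 49.4 and 66.7 in rrp6, and that of C/D snoRNAs was 31.4 and 62.4 in air2 rrp6, against 111 and 109 in rrp6. The C/D snoRNAs are shorter, with a median of 98 bases (82 to 255) against 203 bases (161 to 1004), so type and length cannot be told apart. Within a type, the rank correlation of fold change with length was -0.18 over 39 C/D snoRNAs and 0.03 over 27 H/ACA snoRNAs, given as a description over features that share the same 4 libraries.

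Some C/D snoRNAs are made from a shared precursor that holds several of them, and others have a gene of their own. The 17 tested snoRNAs of such clusters, taken as C/D genes on the same strand with gaps of at most 600 bases, had a median of -1.05, and the 22 C/D snoRNAs outside clusters -1.27. Members of 1 cluster did not share 1 value. In the cluster of 7 on chromosome XIII the log2 fold change was -2.13 for snR73 (SE 0.73), -1.62 for snR76 (SE 0.78) and -1.05 for snR78 (SE 0.40). The other members were at -0.86 (snR77), -0.75 (snR72), -0.61 (snR75) and -0.39 (snR74). Of the 7, 5 were lower without overlap, where 13.2% of all features and 76.9% of C/D snoRNAs were. snR73 had 104 and 96.4 CPM in air2 rrp6, against 557 and 320 CPM in rrp6. On chromosome XII, snR55 (-2.42) lies between snR57 (-0.90, SE 1.82) and snR61 (-0.59, SE 0.23). On chromosome V, snR53 (-2.58) neighbours snR67 (-1.16). Beyond these clusters, snR69, a C/D snoRNA with its own gene, had 26.2 and 49.1 CPM in air2 rrp6, against 144 and 153 CPM in rrp6 (log2 fold change -1.98, SE 0.49).

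The authors' deposited table lists a log2 ratio and a p-value for each feature in the same comparison. In the authors' deposited table, 52 of 76 snoRNAs have a p-value under 0.05 and a negative ratio, and 0 have one with a positive ratio. The authors' deposited table gives snR62 a log2 ratio of -3.05 and snR53 one of -2.61. Over all features, the authors' deposited table has 147 higher and 241 lower entries at that level, unadjusted.

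A direct comparison of air2 rrp6 with air1 rrp6 set the strain without AIR2 against the strain without its paralog. The adjusted p was under 0.05 for 5 higher features (0.0663%) and 1 lower feature (0.0133%). These were AIR2, at -3.77 (adjusted p = 0.00025), AIR1, at 6.52 (adjusted p = 0.00015), and the 4 genes of the 2-micron plasmid. The plasmid genes had 17.3 to 149 CPM in air2 rrp6 and rrp6 and 0.042 to 1.27 CPM in air1 rrp6, so that plasmid is all but missing from the air1 rrp6 libraries. The strains compared here thus differ in the plasmid as well as in the AIR gene lost, and the comparison cannot tell these apart. No snoRNA passed (0 of 68), and with the replicate number as a block 2 did. The lowest adjusted p of a snoRNA named here was that of snR9, with 20 and 18 CPM in air2 rrp6, against 67.9 and 62.1 CPM in air1 rrp6 (log2 fold change -1.77, adjusted p = 0.081, edgeR quasi-likelihood test, and 0.0054 with the block).

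By type, the H/ACA snoRNAs lay apart from air1 rrp6 more than the C/D snoRNAs did. Of 27 H/ACA snoRNAs, 18 were lower in air2 rrp6 than in air1 rrp6 without overlap, with a median log2 fold change of -0.84, where 18.6% of all features were lower without overlap. Of 39 C/D snoRNAs, 16 were, with a median of -0.40. Against rrp6, whose libraries both comparisons share, the median of H/ACA snoRNAs was -0.88 in air2 rrp6 and 0.11 in air1 rrp6. For C/D snoRNAs the medians against rrp6 were -1.16 in air2 rrp6 and -0.83 in air1 rrp6. In air1 rrp6, 9 H/ACA snoRNAs and 23 C/D snoRNAs were lower than in rrp6 without overlap, where 18.5% of all features were. None of these differences between types was tested.

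**Figure D3:**
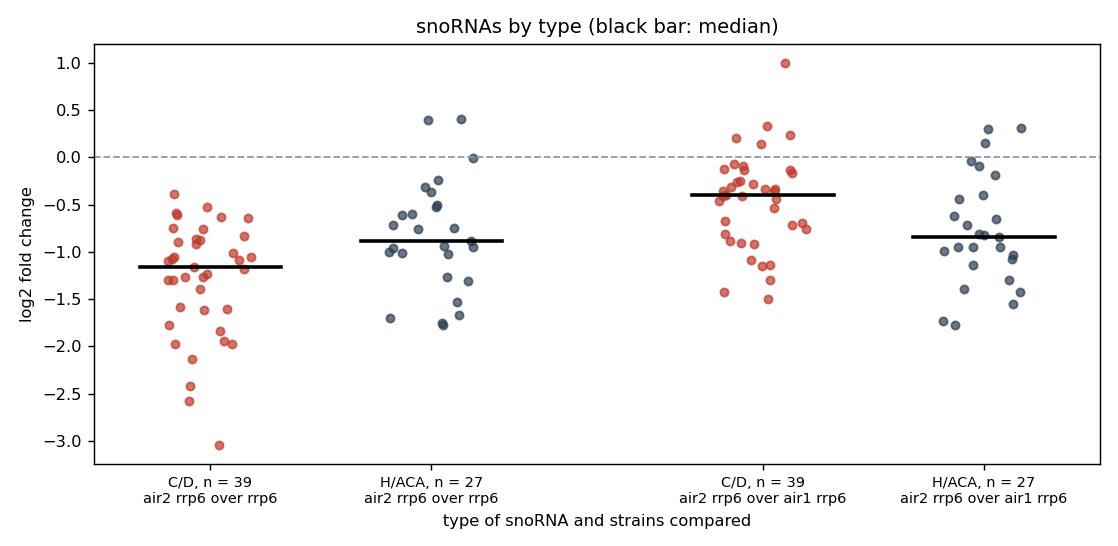
Log2 fold change (y axis) of each tested snoRNA, by type and by the pair of strains compared (x axis); points are snoRNAs and black bars medians. Against rrp6 the medians are -1.16 for C/D and -0.88 for H/ACA snoRNAs, and against air1 rrp6 they are -0.40 and -0.84.

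Other structured RNAs of the nucleus also lay lower in the same libraries, at values near those of the H/ACA snoRNAs (median -0.88, 51.9% lower without overlap). The 6 spliceosomal RNA features, counting the long and short forms of U5, had a median of -0.91, and 3 were lower without overlap (50%, against 13.2% of all features). LSR1, the U2 RNA, had 722 and 436 CPM in air2 rrp6, against 1259 and 1333 CPM in rrp6 (log2 fold change -1.16, SE 0.51). snR19, the U1 RNA, had 232 and 199 CPM in air2 rrp6, against 350 and 490 CPM in rrp6. U2 and U1 are both separated between strains, whereas U6 (snR6) overlapped, with 3.96 and 9.29 CPM in air2 rrp6 and 8.77 and 16.6 CPM in rrp6. TLC1, the telomerase RNA, had 37.9 and 55.7 CPM in air2 rrp6, against 74 and 69.5 CPM in rrp6 (log2 fold change -0.62, SE 0.27). NME1, the RNA of RNase MRP, and RPR1, the RNA of RNase P, had overlapping libraries. NME1 had 86.8 and 72.7 CPM in air2 rrp6 and 84.1 and 289 CPM in rrp6, and RPR1 had 37.7 and 40.5 CPM in air2 rrp6 and 35 and 103 CPM in rrp6. In both the second rrp6 library alone is high.

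Ribosomal DNA features were mostly lower too. Of 25 tested, 14 (56%) were lower without overlap, against 13.2% of all features, and 23 had a log2 fold change below 0. The 5.8S feature RDN58-1 had 2767 and 4527 CPM in air2 rrp6, against 15065 and 11882 CPM in rrp6 (log2 fold change -1.89, SE 0.63). The 5.8S RNA is the one whose 3′ end Rrp6 and the exosome are known to trim, and its strains do not overlap. The 25S feature RDN25-1 had 72178 and 61607 CPM in air2 rrp6 and 61298 and 109394 CPM in rrp6, and the strains overlap. The 18S feature RDN18-1 had 33840 and 35901 CPM in air2 rrp6, against 37742 and 62074 CPM in rrp6 (log2 fold change -0.52, SE 0.54). The 5S feature RDN5-1 had 435 and 128 CPM in air2 rrp6, against 569 and 758 CPM in rrp6 (-1.24, SE 0.56). Neither 18S nor 5S overlaps between the strains, and in each 1 library lies far from its duplicate. DESeq2 and the exact test called 5.8S lower (adjusted p = 0.04 and 0.00041), and the quasi-likelihood test did not. Repeated rDNA copies are identical, so a value for 1 copy is a share of reads that fit both. The 25 features include such copies and are not independent, so the count of 14 can hold 1 RNA more than once.

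CUTs, the short-lived noncoding RNAs known to depend on the exosome, and stable unannotated transcripts showed no shift of either class between these strains. CUTs held 0.449 and 0.544% of counts outside ribosomal DNA and mitochondria in air2 rrp6 and 0.483 and 0.562% in rrp6, which overlap. Stable unannotated transcripts (SUTs) held 0.506 and 0.601% in air2 rrp6 and 0.498 and 0.584% in rrp6. Of 759 CUTs tested, 0 passed the threshold, the median was -0.02, and 80 were higher (10.5%) and 122 lower (16.1%) without overlap, against 15.7 and 13.2% of all features. At an unadjusted p under 0.05, 2 of the 759 CUTs were higher and 11 lower, where 0.994% of all features were higher and 1.67% lower. The lower count is thus near the share of all features. CUT659 had 1.16 and 2.63 CPM in air2 rrp6, against 5.8 and 5.51 CPM in rrp6 (log2 fold change -1.60, SE 0.42), and was chosen after its values were seen. Of 687 SUTs, 0 passed, the median was 0.00, and 85 were higher (12.4%) and 100 lower (14.6%) without overlap. SUT739, also chosen after its values were seen, had 4.78 and 3.68 CPM in air2 rrp6, against 1.21 and 2.33 CPM in rrp6. As a scale for these values, the CUT median in rrp6 against WT was 2.89 and the SUT median 0.86.

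Among the other genes of the pathway none passed the threshold, and some lay higher without overlap. Of the 5 TRAMP genes, AIR2 fell and the other 4 overlapped between the strains. AIR1 had 21.3 and 20.6 CPM in air2 rrp6 and 19.7 and 21.2 CPM in rrp6 (log2 fold change 0.03, SE 0.29). Its level thus showed no rise beyond the spread in the strain without its paralog. PAP2, which encodes the polymerase Trf4, had a log2 fold change of -0.30 (SE 0.30), TRF5 one of -0.10 (SE 0.25) and MTR4 one of -0.05 (SE 0.22). Among the cofactors of Rrp6, LRP1 had 12.4 and 15.9 CPM in air2 rrp6, against 7.73 and 10.9 CPM in rrp6, and MPP6 overlapped. All 10 core exosome genes were tested, 0 passed the threshold, the median was 0.24, and 5 (50%, against 15.7% of all features) were higher without overlap, RRP43, MTR3, SKI6, RRP42 and RRP45. RRP43 had 40.2 and 36.3 CPM in air2 rrp6, against 29.7 and 32.3 CPM in rrp6. DIS3, the catalytic subunit, was at 0.00 (SE 0.20). In air1 rrp6 against the same rrp6 libraries, the core exosome median was 0.29. There, too, 5 of the 10 were higher without overlap, where 1377 of 7543 features were. LRP1 had a log2 fold change of 0.69 in air1 rrp6 and 0.60 in air2 rrp6, both against rrp6.

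The 9 genes of Nrd1-Nab3-Sen1 termination, which ends snoRNA and CUT transcription and hands the RNA to TRAMP, all overlapped between the strains. Their median was -0.06. NRD1 had a log2 fold change of 0.09 (SE 0.33), NAB3 one of -0.15 (SE 0.25), SEN1 one of -0.05 (SE 0.22) and PCF11 one of -0.08 (SE 0.26). SSU72, PTI1, REF2, SWD2 and SYC1 lay between -0.23 and 0.26. Genes for snoRNP and ribosome assembly proteins, 58 in all, had a median of 0.05, with 12 higher (20.7%) and 5 lower (8.62%) without overlap, near the 15.7 and 13.2% of all features. The RNAs of the snoRNP class and the mRNAs of this list therefore had different medians, -1.02 and 0.05.

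Protein-coding genes moved little. Of 5584 tested, AIR2 passed the threshold, the median was 0.03, and 954 (17.1%) were higher and 648 (11.6%) lower without overlap. The naming rule took the features with the smallest unadjusted p in each direction to fill 10 places, so the features below did not pass the test, and each has an adjusted p that rounds to 1. On the higher side these were 2 Ty elements and 8 genes of unlike functions. LYS9, a saccharopine dehydrogenase of lysine synthesis, had 93.1 and 62.7 CPM in air2 rrp6, against 42.9 and 49.7 CPM in rrp6. GSC2, a glucan synthase subunit made under cell wall stress, had 97.5 and 89.6 CPM in air2 rrp6, against 62.8 and 48.4 CPM in rrp6. GSC2 was also higher than in air1 rrp6, with a log2 fold change of 1.52 (adjusted p = 0.081). The other 6 genes were REE1 (0.79), TRS23 of the TRAPP vesicle tethering complex (0.77), MRPL7 of the mitochondrial ribosome (0.70), SER3 (0.68), ARN1 (0.80) and MSG5, a phosphatase of MAP kinases (0.63), all log2 fold changes with SEs of 0.21 to 0.27.

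SER3, which encodes 3-phosphoglycerate dehydrogenase of serine synthesis, is known to be repressed by transcription of the noncoding RNA SRG1 across its promoter. SER3 had 48.5 and 49.8 CPM in air2 rrp6, against 24.1 and 37.2 CPM in rrp6. SRG1, chosen after its values were seen, had 34.1 and 25.8 CPM in air2 rrp6, against 44.3 and 42.4 CPM in rrp6 (log2 fold change -0.53, SE 0.20). Both are separated between the strains, SER3 upwards and SRG1 downwards, and neither passed the threshold. In air1 rrp6, SRG1 had 27.7 and 30.8 CPM and SER3 39.3 and 33.8 CPM. In WT, SRG1 had 15.6 and 17.1 CPM and SER3 20.6 and 21.1 CPM, so both RNAs were lowest there. Whether the SER3 and SRG1 values are linked was not tested. Genes whose start sites are set by nucleotide levels, with early termination by Nrd1 as part of the switch, showed values in both directions. Of 8 tested, 2 were higher (25%) and 3 lower (37.5%) without overlap, against 15.7 and 13.2% of all features. IMD2, IMP dehydrogenase, had 42 and 39.7 CPM in air2 rrp6, against 29.9 and 28.3 CPM in rrp6, and URA8, CTP synthase, had 42.6 and 38.4 CPM in air2 rrp6, against 27 and 26.1 CPM in rrp6. URA4, dihydroorotase, had 40.9 and 45.8 CPM in air2 rrp6, against 60.2 and 55.1 CPM in rrp6.

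Genes of iron uptake had, among the pathway lists with at least 20 tested members, the largest share of members separated between the strains. Of 25 tested, 14 were higher without overlap and 0 lower, with a median of 0.35, where 15.7% of all features were higher without overlap. None passed the threshold in the quasi-likelihood test. FIT2, a cell wall mannoprotein that retains siderophore iron, had 44.8 and 24.5 CPM in air2 rrp6, against 13.2 and 7.25 CPM in rrp6 (log2 fold change 1.76, SE 0.57). The exact test called it higher (adjusted p = 0.015). ARN1, a siderophore transporter, had 20.4 and 20.3 CPM in air2 rrp6, against 10.7 and 12.6 CPM in rrp6. TIS11, an RNA-binding protein that lowers mRNAs of iron-using pathways, had 8.71 and 10.2 CPM in air2 rrp6, against 5.6 and 4.79 CPM in rrp6. FET3, the high-affinity iron oxidase, overlapped, with 164 and 186 CPM in air2 rrp6 and 175 and 143 CPM in rrp6. FIT1 and FIT3 were at 1.72 (SE 0.98) and 1.14 (SE 1.14). For FIT1, FIT2 and FIT3 the first library was above the second in all 4 strains. FIT3, for example, had 59.5 and 24.4 CPM in air2 rrp6, 27.1 and 10.8 CPM in rrp6, and 27.8 and 7.48 CPM in WT. FIT2, FIT1, FIT3 and TIS11 were chosen after their values were seen.

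**Figure D4:**
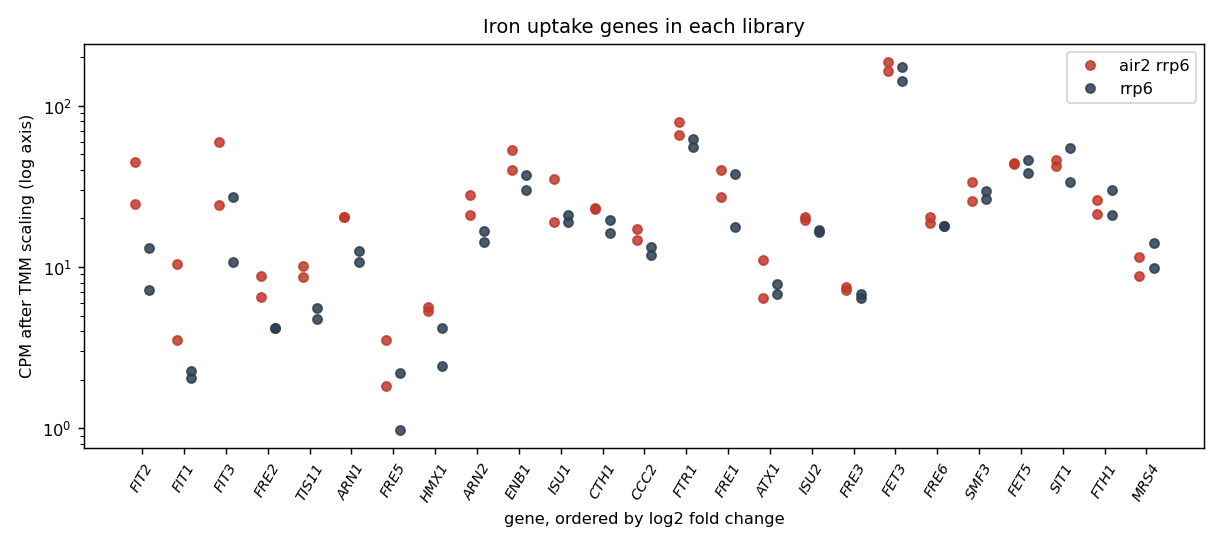
CPM after TMM scaling on a log axis (y axis) in each air2 rrp6 and rrp6 library for the 25 tested iron uptake genes, ordered by log2 fold change (x axis); points are libraries. FIT2, at the left, has 44.8 and 24.5 CPM in air2 rrp6 against 13.2 and 7.25 CPM in rrp6, and genes at the right overlap.

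The other coding lists described in this paragraph had medians of -0.07 to 0.14. Some lists not described lay outside that range, such as multidrug transport (-0.15) and gluconeogenesis and glyoxylate (0.23). Counts without overlap are set against 15.7% higher and 13.2% lower over all features. Of 26 heat shock chaperone genes tested, 8 were higher (30.8%) and 0 lower at a median of 0.04. HSP12, a small membrane-associated stress protein, had 16.4 and 12.6 CPM in air2 rrp6, against 4.7 and 5.68 CPM in rrp6. The edgeR exact test called HSP12 higher (log2 fold change 1.46, adjusted p = 0.0034), and it lies outside the naming rule. Of 20 glycolysis and fermentation genes, 8 were higher (40%) and 1 lower (5%) at a median of 0.07. Of 20 genes of thiamine and vitamin B6 synthesis, 7 were higher (35%) and 1 lower (5%). Of 138 ribosomal protein genes, 7 were higher (5.07%) and 24 lower (17.4%) at a median of 0.00. Phosphate regulon genes, 18 in all, had 1 higher (5.56%) and 5 lower (27.8%), and histone genes, 10 in all, 2 higher (20%) and 3 lower (30%). None of these lists had a member past the threshold in the quasi-likelihood test.

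Most retrotransposon features lay higher. Of 49 tested Ty elements, 37 had a log2 fold change above 0 and 12 below it. Without overlap 26 were higher (53.1%, against 15.7% of all features) and 0 lower, at a median of 0.31, and 0 passed the threshold. YNLCTy2-1 had 615 and 394 CPM in air2 rrp6, against 179 and 223 CPM in rrp6 (log2 fold change 1.33, SE 0.28), and DESeq2 and the exact test both called it higher (adjusted p = 0.004 and 0.047). YPRCTy1-4 had 588 and 442 CPM in air2 rrp6, against 299 and 136 CPM in rrp6. YOLWTy1-1, a more abundant copy chosen after its values were seen, went the other way and overlapped, with 2265 and 1419 CPM in air2 rrp6 and 3580 and 1853 CPM in rrp6 (-0.56, SE 0.44). Copies of a family are nearly identical and reads are shared among them, so values of single copies are uncertain and the copies are not independent. Summed over 31 copies, Ty1 had 12534 and 8387 CPM in air2 rrp6 and 10902 and 8087 CPM in rrp6, which overlap. Summed over 13 copies, Ty2 had 1492 and 1153 CPM in air2 rrp6, against 952 and 834 CPM in rrp6, which do not.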

How the data were processed

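Polyadenylated RNA of 4 yeast strains with 2 libraries each was sequenced on the SOLiD platform, per the labels' protocols. The deposited count table gives the authors' expected counts per feature, of which 12.3 to 13% per library were not whole in these strains. The tools named are Bowtie 0.12.7, edgeR 2.2.5 and SAMtools, per the submitters' processing notes, and no genome build is given with them. Whether counting used strand is not stated, so antisense and overlapping features are uncertain. A second table deposited by the authors gives log2 ratios and p-values, and it entered no fit.

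Counts were rounded, filtered with filterByExpr of edgeR 4.0.16 (minimum count 10), scaled by TMM and fitted over all 8 libraries by robust quasi-likelihood, each strain having its own mean (R 4.3.3). Benjamini-Hochberg adjustment ran over 7543 features, with a threshold of 0.05. Alternatives were library totals, RLE factors (DESeq2 1.42.0), TMM from coding genes, other filters, DESeq2's Wald test, the 2 strains alone, a replicate block, omission of ribosomal DNA, counts rounded down and omission of each library. The edgeR exact test and the settings on snoRNA counts were added after seeing the data. The fit was also run on simulated counts, drawn with the general trend of spread and not with each feature's own spread. That run does not show how well the fit does on the real libraries.

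The members and lists were chosen with earlier results of these data known. The naming rule took the deleted genes, the largest changes among called features with at least 5 CPM and no overlap, filled to 10 per direction by the smallest unadjusted p, and every member of 3 pathway lists. LSR1, snR19, snR6, RDN58-1, RDN25-1, RDN18-1, RDN5-1, URA8, COX2 and OLI1 lie outside this rule and were chosen after their values were seen. The rule also did not pick IMD2, URA4, TLC1, NME1, RPR1, RRP43, DIS3, FET3, snR17a, snR17b or the cluster snoRNAs given only by fold change. Lists are described by counts and medians. Of 9014 feature identifiers, 6048 were found in RefSeq, and snoRNA type, place and sequence come from the RefSeq R64 annotation by name. Duplicates differed by far more than counting error (chi-square per degree of freedom 66.1 in air2 rrp6 and 223 in rrp6), so no library repeats another.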

Additional observations from a re-analysis of the deposited data

How the results depend on the processing

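AIR2 kept its direction under every alternative listed in the methods, at log2 fold changes of -4.17 to -3.70. The count of lower features was 2 with library totals (AIR2 and snR62), 20 with DESeq2 and 26 with the edgeR exact test, against 1 as reported, and 0 to 1 over left-out libraries. The count of higher features was 1 with DESeq2 and 4 with the exact test, against 0. Lower snoRNAs numbered 1 with library totals, 16 with DESeq2 and 22 with the exact test, against 0, and DESeq2 and the exact test shared 13 snoRNAs. The snoRNA median ran from -1.28 (without air2 rrp6 replicate 2) to -0.76 (library totals), and snoRNAs lower without overlap numbered 35 with library totals, where 2.28% of all features were lower and 42.5% higher. Unadjusted p under 0.05 gave 34 lower snoRNAs, 17 with library totals and 21 to 41 over left-out libraries. With library totals, list medians were 0.64 (iron uptake), 0.54 (core exosome), 0.32 (heat shock), 0.43 (thiamine and vitamin B6), 0.21 (phosphate regulon), 0.36 (histones), 0.32 (ribosomal proteins) and 0.35 (snoRNP and ribosome assembly), against an all-feature median of 0.32. The phosphate regulon median thus changes sign and lies below that shift. With all counts as the denominator, the ratio of air2 rrp6 over rrp6 was 0.665 for snoRNA shares, 1.15 for CUTs and 1.23 for SUTs. Replicate numbers are shared by the strains and the deviations of same-numbered libraries correlated at 0.4 across features for these strains, and at 0.13 to 0.4 over all 6 pairs of strains. With 2 numbers per strain and no label for a batch they are not taken as pairs, though they may be. The replicate block left 0 higher and 1 lower feature, and in air2 rrp6 against air1 rrp6 it gave 8 higher and 7 lower features (2 of them snoRNAs) in place of 5 and 1, and raised the calls among features named by rule to 6, adding DLD1, snR9, GSC2 and YPRCTy1-4. Causes of these differences were not tested. Depth limits low features such as CUT659, and 2 libraries per strain limit every test.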

Other observations

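Mitochondrial features as a whole held an overlapping share of all counts in both strains, 1.65 and 2.75% in air2 rrp6 and 2.09 and 1.87% in rrp6. Of 9 tested features on the list of mitochondrially encoded genes, 4 (44.4%, against 13.2% of all features) were lower without overlap and 0 higher, at a median of -0.48, and 0 passed the threshold. COX2, a cytochrome oxidase subunit, had 28.1 and 39.9 CPM in air2 rrp6, against 62.8 and 56.5 CPM in rrp6 (log2 fold change -0.81, SE 0.26). OLI1, an ATP synthase subunit, had 791 and 992 CPM in air2 rrp6 and 2705 and 943 CPM in rrp6, where 1 rrp6 library alone is high. The 39 tested nuclear respiratory chain genes had a median of 0.09.

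Among tRNA genes, 81 of 299 were tested, 18 were lower (22.2%, against 13.2% of all features) and 0 higher without overlap, at a median of -0.65. Single libraries decided several values. The tRNA gene tG(CCC)D had 0.396 and 0.969 CPM in air2 rrp6 and 0.462 and 9.46 CPM in rrp6, and tQ(CUG)M had 21 and 15.9 CPM in air2 rrp6 and 18.4 and 128 CPM in rrp6. CUT087 had 3.27 and 43.3 CPM in air2 rrp6 and 7.21 and 3.9 CPM in rrp6. All these were chosen after their values were seen.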
